A study of Arabidopsis thaliana with 6 samples.

Results

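Jacalin-related lectins are plant proteins built around a sugar-binding fold first described in the jackfruit lectin jacalin. In Arabidopsis the family includes lectins that gather around PYK10, a beta-glucosidase stored in the ER bodies of root and seedling cells, and myrosinase-binding proteins, which associate with the enzymes that break down glucosinolates. The loci listed for the family here also include those of nitrile-specifier proteins, which steer that breakdown towards nitriles. The family was compared between callus, the unorganized cell mass that forms on hormone-containing medium, and the leaf from which the callus was grown.

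Of 44 loci listed as jacalin-related lectins, 20 were measured by a probe set that belonged to 1 gene, among 13356 genes measured in all. Measured means here that the platform's gene table used gives the gene such a probe set. A gene that was not measured may still have a probe set on the array. The members were chosen by their family, and where a gene had several such probe sets the brightest by its mean of 6 arrays stood for it. Each of the 20 had 1, so none was dropped. The family itself was selected on callus and leaf values of these arrays that were already known. The differences below are therefore a description of the members and not a test of the family. Another 3 loci were covered only by probe sets shared between several genes, and the other 21 were not analysed here. Among these 21 were the nitrile-specifier genes NSP1 to NSP5, the myrosinase-binding protein genes MBP1 and MBP2, PBP1 (the PYK10-binding protein gene), JAL31, JR1 (also called JAL35) and the virus resistance gene JAX1.

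The arrays were Affymetrix GeneChips, and both tissues were wild-type Col-0. Leaves came from 20-day-old seedlings, and calli grew for 20 days from leaf blades of that age on callus-inducing medium (CIM), which carries 2,4-dichlorophenoxyacetic acid (an auxin), kinetin (a cytokinin) and glucose. Each tissue had 3 arrays, described in the study's methods as independent experiments. Whether RNA of several plants was pooled for an array is not given in the sources used here. Tissue, medium, hormones, detachment and the days of culture changed together between the groups and cannot be told apart. According to the methods explants stayed in darkness on CIM, whereas the labels name daily light for calli as well as leaves, so a difference in light cannot be told apart from the rest either.

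The labels were checked against marker genes on the log2 scale of the deposited values. The 6 measured photosynthesis genes of 8 listed averaged 5.11 to 5.21 on the callus arrays and 12.9 to 13.1 on the leaf arrays, and both measured guard cell genes of 2 listed averaged 4.19 to 4.37 and 7.29 to 7.51. The 3 measured genes of dividing cells (4 listed) averaged 6.82 to 7.01 in callus and 4.57 to 4.83 in leaf, and the 2 measured root regulators (5 listed) 7.43 to 7.72 and 4.23 to 4.41. The root hair gene EXPA7, measured alone of 2 listed, read 4.62 to 4.69 and 4.06 to 4.16. Flower and seed markers had 0 genes with a probe set of their own in the gene table used. EXPA7 was not called, and the other measured markers differed between the tissues by more than 2-fold. Their part in the lectin values was not tested. In RNA from whole tissue, fewer cells of a type and less RNA per cell cannot be told apart. For actin controls at the 3' and 5' ends, which reflect how intact the RNA was, the end difference in callus was 3.75 ± 0.0797 and in leaf 3.01 ± 0.218 on one pair of probe sets, but 1.53 ± 0.0549 and 1.84 ± 0.268 on the other (SD, n = 3). The matching GAPDH values were 0.550 ± 0.133 and 0.980 ± 0.0653 on one pair and 0.367 ± 0.0862 and 0.247 ± 0.0654 on the other, and those of ubiquitin 1.204 ± 0.0385 and 0.978 ± 0.118, and -0.0853 ± 0.0340 and -0.0755 ± 0.0725. Their part in the results was not tested.

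A gene was called when its adjusted p from limma was under 0.05 and its change was more than 2-fold. Of the 20 measured lectin genes 6 were called higher in callus, 3 were called lower and 11 were not called. Over all genes 16.4% were called higher and 13.2% lower, 29.6% in either direction. The median log2 fold change (callus over leaf) was 0.13 for the lectins and 0.01 for all genes, while the median size of the change regardless of direction was 0.81 for the lectins and 0.41 for all genes. The changes ranged from -3.08 to 7.96 across the members. The callus and leaf arrays did not overlap for 13 of the 20, against 66.0% of all genes. Replicates of the lectin genes had a median SD of 0.0883 (callus) and 0.124 (leaf), beside 0.0867 and 0.103 for all genes.

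**Figure D1:**
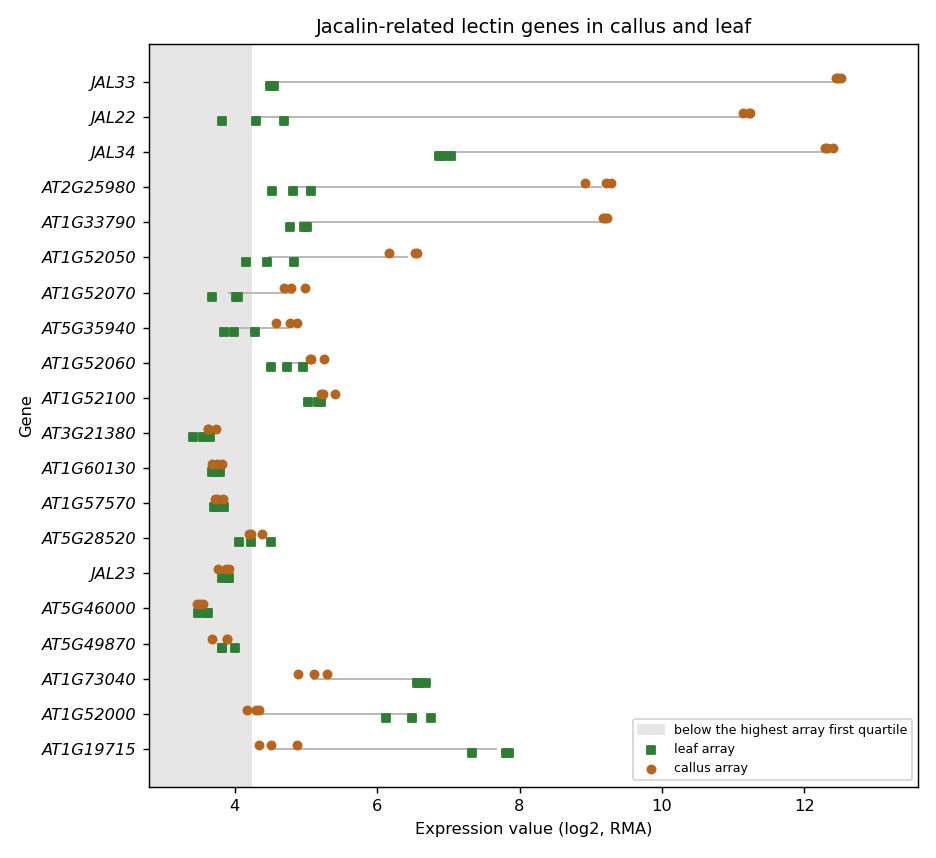
Expression of the 20 measured lectin genes (rows) on each array, on the log2 scale of the deposited values (horizontal axis); circles are the 3 callus arrays, squares the 3 leaf arrays, and grey lines join the group means. The shaded band lies below 4.23, the highest first quartile of any array; JAL33, JAL22 and JAL34 sit far to the right in callus, and 6 genes lie in the band on all 6 arrays.

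The largest rises belonged to 3 JAL genes, which encode jacalin-related lectins named by number. JAL33 read 12.4, 12.5 and 12.5 on callus replicates 1 to 3 and 4.52, 4.49 and 4.55 on the leaf arrays. All callus arrays thus lay far above all leaf arrays, and the ratio of callus to leaf was 248-fold (log2 fold change 7.96 ± 0.0669, SE). JAL22 read 11.2, 11.2 and 11.1 in callus and 4.31, 4.70 and 3.82 in leaf. The leaf arrays of JAL22 spread more widely than those of any other measured member (SD 0.438), with leaf replicate 3 lowest, while its callus arrays were close to each other (SD 0.0508). Its ratio was 121-fold (log2 fold change 6.92 ± 0.153, SE), and it stayed between 6.70 and 7.13 on the log2 scale with any 1 array left out.

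JAL34 read 12.4, 12.3 and 12.3 in callus and 6.91, 7.04 and 6.87 in leaf. The groups did not overlap, and the ratio was 42.0-fold (log2 fold change 5.39 ± 0.0638, SE). Values of dim genes carry background signal that RMA does not remove fully, and the leaf values of JAL33 and JAL22 lay close to the first quartile of the arrays (4.15 to 4.23), so their folds are not exact. The same holds below, among others, for AT1G52050, AT1G52070, AT5G35940 and NAI2 in leaf and for AT1G52000, AT1G19715 and BCAT4 in callus. JAL23, the family gene beside JAL22, read 3.77 to 3.92 in callus and 3.82 to 3.92 in leaf, below the first quartile on all 6 arrays.

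A pair of lectin genes that the gene table used here names by locus followed. AT2G25980 read 9.22, 9.28 and 8.92 in callus and 4.83, 5.07 and 4.52 in leaf. Replicate 3 was lowest in both tissues, and the gap between the tissues, 4.33 ± 0.133 on the log2 scale (SE, 20.1-fold), was far wider than that spread. AT1G33790 read 9.19, 9.22 and 9.17 in callus and 4.97, 4.78 and 5.02 in leaf, a ratio of 19.4-fold (log2 fold change 4.28 ± 0.0930, SE). With JAL33, JAL22 and JAL34 these made 5 of 20 members called at more than 16-fold higher in callus, against 0.883% of all genes. The 16-fold cut was not fixed beforehand and falls between the ratios of AT1G33790 and AT1G52050, so nothing is read from this share. AT1G52050 rose less, from 4.16, 4.45 and 4.84 in leaf to 6.17, 6.56 and 6.54 in callus. Its lowest callus array still lay above its highest leaf array, and the ratio was 3.82-fold (log2 fold change 1.94 ± 0.162, SE).

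The 3 members called lower are also given by locus. AT1G19715 read 4.52, 4.88 and 4.35 in callus and 7.34, 7.81 and 7.85 in leaf. The ratio of leaf to callus was 8.48-fold (log2 fold change -3.08 ± 0.156, SE), with no overlap of the arrays. AT1G52000 read 4.18, 4.30 and 4.34 in callus and 6.13, 6.50 and 6.75 in leaf, a ratio of leaf to callus of 4.56-fold (log2 fold change -2.19 ± 0.145, SE). AT1G73040 read 4.89, 5.12 and 5.30 in callus and 6.58, 6.69 and 6.57 in leaf. Its ratio of leaf to callus was 2.84-fold (log2 fold change -1.51 ± 0.123, SE), and it was not called after centring the arrays on their poly-A controls (log2 fold change -0.93), which left 8 members called higher and 2 lower. With TIP41, a reference gene, as the centre the members' counts were 6 higher and 3 lower. That centre rests on 1 probe set, whereas the hybridization controls have 9 and the poly-A controls 15.

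**Figure D2:**
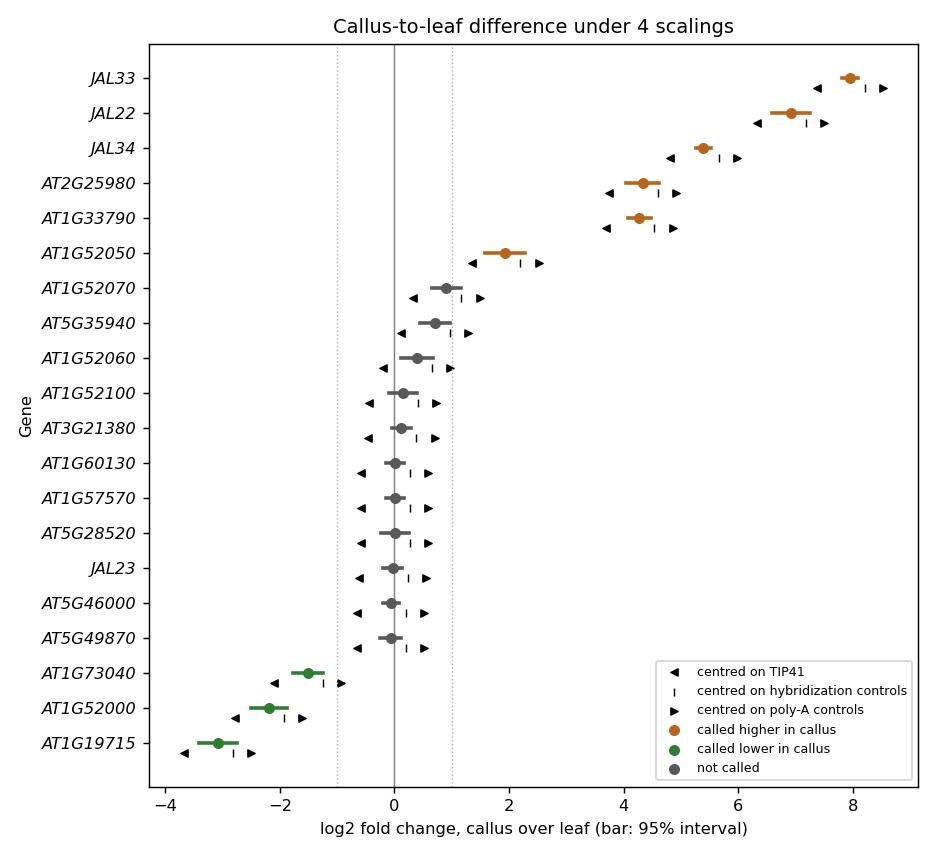
log2 fold change of callus over leaf (horizontal axis) for the 20 measured lectin genes (rows), with bars for the 95% interval of the fit and black marks for the value after centring each array on TIP41, the hybridization controls or the poly-A controls. Dotted lines mark the 2-fold threshold; the members from JAL33 down to AT1G52050 and the members AT1G52000 and AT1G19715 lie beyond it under every scaling, and the members near 0 change sign with the scaling.

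The 11 members that were not called were weakly different, little different or dim. AT1G52070 read 4.69 to 4.99 in callus and 3.69 to 4.05 in leaf (log2 fold change 0.91 ± 0.120, SE), AT5G35940 read 4.59 to 4.88 and 3.85 to 4.29 (0.70 ± 0.123), and AT1G52060 read 5.06 to 5.26 and 4.52 to 4.95 (0.40 ± 0.128). In all 3 the callus and leaf arrays did not overlap, but the change stayed below 2-fold. All 3 leaf arrays of AT1G52070 and 2 of AT5G35940 lay below their first quartile, so these folds are not exact. AT1G52070 passed 2-fold after centring on the hybridization controls (1.17) or the poly-A controls (1.49), and AT5G35940 on the poly-A controls (1.28). With TIP41 as the centre AT1G52070 was at 0.32 and AT5G35940 at 0.12. AT1G52100 read 5.22 to 5.41 in callus and 5.04 to 5.22 in leaf, and the 95% interval of its log2 fold change was -0.10 to 0.39.

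The other 7 members had overlapping arrays and changes between -0.06 and 0.12 on the log2 scale, a direction that depended on the scaling. For 6 of them, JAL23, AT1G57570, AT1G60130, AT3G21380, AT5G46000 and AT5G49870, every array lay below its own first quartile, as it did for 21.7% of all genes. Whether these genes did not change or were too dim for a change to be seen cannot be told apart. The other of the 7, AT5G28520, read 4.21 to 4.38 in callus and 4.06 to 4.51 in leaf.

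Position along the chromosomes was not used to choose the members. Many of them stand in tandem, with 10 listed loci from AT1G52000 to AT1G52130, 9 from NSP3 to JR1 on chromosome 3, and JAL22 and JAL23 on chromosome 2 with 1 gene between them. In the chromosome 1 group 5 loci were measured and their calls differed, since AT1G52000 was called lower and AT1G52050 higher, and AT1G52060, AT1G52070 and AT1G52100 were not called. In the chromosome 3 group the 2 measured loci, JAL33 and JAL34, are next to each other and were both called higher. In the chromosome 2 pair JAL22 was called higher, and AT2G39320, which lies between the lectin genes, had a log2 fold change of -0.01 and JAL23 one of -0.03.

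**Figure D3:**
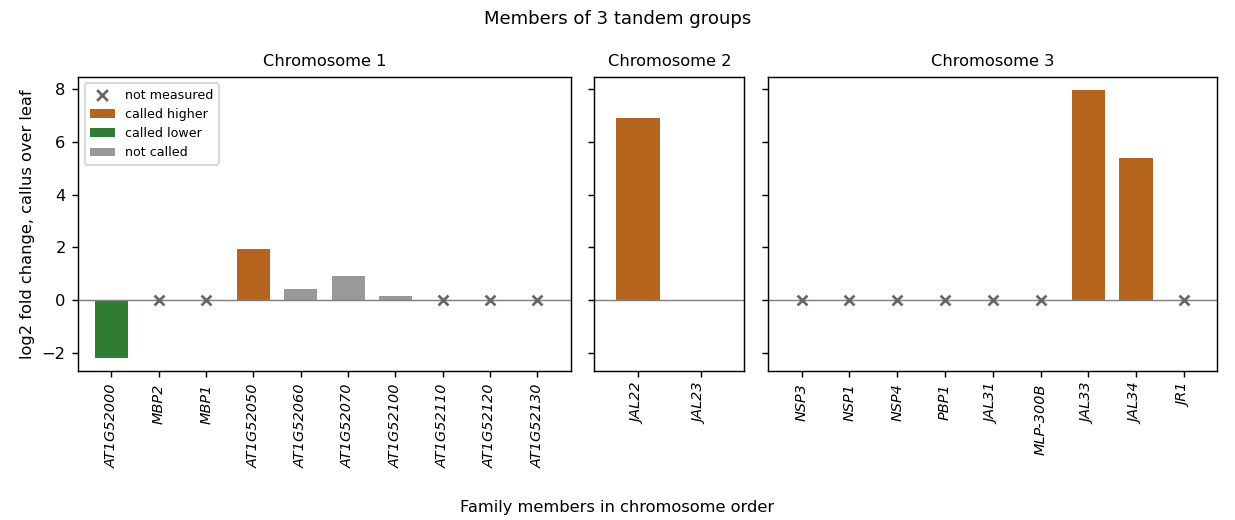
log2 fold change of callus over leaf (vertical axis) for family members in chromosome order in the 3 tandem groups with more than 1 measured member. Crosses are loci without a probe set of their own in the gene table used, and the colours give the call. Bars point both ways in the chromosome 1 group, and JAL33 and JAL34 stand side by side at 7.96 and 5.39.

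The nearest measured genes outside the family were set beside the members in the same way. The 6 members called higher had 10 such flanking genes, of which 2 were called higher, 2 lower and 6 not called. Over all genes 16.4% were called higher and 13.2% lower. Around JAL33 and JAL34 the nearest measured genes were AT3G16370 at -4.46 and the calmodulin-binding gene IQD26 at 2.14 on the log2 scale. AT3G16370 lies 9 genes from JAL33 and 10 from JAL34, and IQD26 lies 4 and 3 genes away, with unanalysed family loci between. These flanking genes moved in opposite directions, but neither stands next to the pair. Of the 3 members called lower, the 6 flanking genes held 1 called higher and 1 called lower.

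The histone mark H3K27me3, which accompanies silenced genes, was mapped by the study on separate arrays. AT1G52000 was on the study's list of loci with increased H3K27me3 in callus, and it was 1 of the 3 members called lower. The loci NSP3 and AT1G52110 were on the list of decreased loci, and their expression was not analysed here. None of the 6 members called higher was on either list, and of all measured genes the decreased list held 1.25% and the increased list 0.509%. Nothing is read from these counts.

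Because several of these lectins bind to PYK10 complexes in root extracts, genes of the ER body were described beside them. This list was chosen with earlier results of these data known, so the count and p-values below describe these genes and test nothing. Of 13 listed genes 4 were measured, and 3 of the 4 were called higher and 0 lower (16.4% of all genes were called higher). PYK10 itself read 12.8, 12.7 and 12.7 in callus and 4.86, 4.82 and 4.74 in leaf (log2 fold change 7.91 ± 0.0663, SE). NAI2, a protein of the ER body needed for its formation, read 10.8 on all 3 callus arrays and 4.39, 4.24 and 4.63 in leaf. The groups did not overlap, with a log2 fold change of 6.40 ± 0.0975 (SE, limma adjusted p = 3.43e-17). NAI1, the bHLH transcription factor required for ER bodies, read 7.07, 7.21 and 7.66 in callus and 6.35, 5.42 and 5.44 in leaf. Leaf replicate 1 stood above the other leaf arrays but below every callus array, and the log2 fold change was 1.58 ± 0.209 (SE, limma adjusted p = 5.75e-06). NAI1 came just short of the 2-fold threshold with TIP41 as the centre (0.99). BGLU19, a beta-glucosidase gene related to PYK10, read 4.37 to 4.52 in callus and 4.36 to 4.63 in leaf and was not called (log2 fold change -0.05 ± 0.106, SE).

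**Figure D4:**
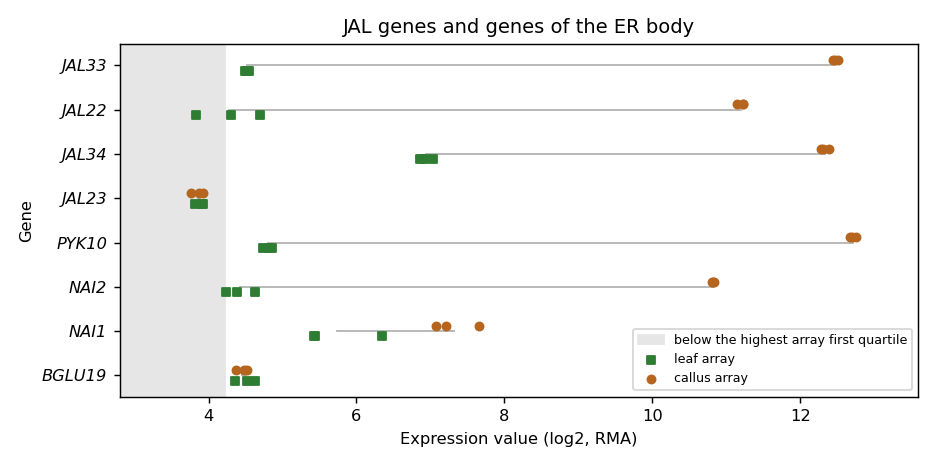
Expression on each array (log2 scale of the deposited values, horizontal axis) of 4 JAL genes and the 4 measured genes of the ER body list (rows); circles are callus arrays, squares leaf arrays, and the shaded band lies below 4.23, the highest array first quartile. The tissues are apart by 7.91 for PYK10, 6.40 for NAI2 and 1.58 for NAI1 on the log2 scale, and the arrays of BGLU19 and JAL23 overlap.

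Genes of glucosinolate synthesis, whose products the myrosinase-binding members relate to, were mostly not measured. Of 19 listed genes 2 were measured. BCAT4, of methionine chain elongation, read 4.24 to 4.31 in callus and 8.22 to 8.34 in leaf and was called lower, and UGT74B1, a glucosyltransferase of the core pathway, read 8.62 to 8.86 and 7.57 to 7.68 and was called higher. UGT74B1 was not called with TIP41 as the centre (0.53 on the log2 scale). Of 12 listed myrosinase and breakdown genes 0 had a probe set of their own in the gene table used. Of 10 listed jasmonate response genes, chosen because JR1 is named for its jasmonate response, 1 was measured. This was the defensin gene PDF1.2, which read 5.13 to 5.37 in callus and 10.7 to 11.2 in leaf and was called lower.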

How the data were processed

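The authors deposited 1 log2 expression value per probe set and array, made with RMA (background correction, quantile normalization, summary of probes) in Partek per the labels. Their versions were not stated, and the values carry no detection call. The table held 22810 probe sets, 64 of them controls, and 0 further columns. Of the others, 13513 had 1 gene in the platform's gene table, 503 had several and 8730 were not listed there. For each of 13356 genes the brightest probe set by its mean of the 6 arrays was kept, and symbols came from the TAIR10.1 RefSeq gene table (44 of 44 members matched), which was used for names and gene order alone. All 20 measured members were on probe sets whose identifiers mark no shared target, but near-identical copies may still cross-hybridize.

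The callus and leaf arrays were fitted in R 4.3.3 by limma 3.58.1, with lmFit and trended eBayes moderation, and p-values were adjusted by Benjamini-Hochberg over all genes. Errors are SD over 3 arrays or the moderated SE. The number of arrays limits the precision. Every measured member was named, and the members with the largest changes were given array by array. Family loci within 12 genes of each other formed a tandem group. The members and gene lists were chosen with earlier results of these data known, and the tandem groups and flanking genes after their values were seen. The fit was run on simulated data with independent noise at each gene's own SD. It recovered 100 of 100 planted changes of each size (1.5 and 3 on the log2 scale), with 0 false calls. Background of dim genes and effects shared by an array were not simulated, so nothing is read from this for the calls above. Promoter and protein sequences were not used here. Alternatives covered scaling, normalization, thresholds, moderation, dim genes, probe sets, a t-test at the methods' thresholds, single arrays left out and the replicate number as a block.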

Additional observations from a re-analysis of the deposited data

How the results depend on the processing

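JAL33, JAL22, JAL34, AT2G25980, AT1G33790, AT1G19715 and AT1G52000 kept their direction and call under every alternative that gave them a value, and the one that left out dim genes gave none for AT1G52000. Over all 20 members, 335 of the values under alternatives kept direction and call, 3 lost the call, 6 gained it and 23 changed sign. Alternatives in the test, moderation, thresholds, block or genes included left each log2 fold change as it was, so no direction could turn there. The mean of probe sets repeated the same values, since each member had 1 probe set. The members called higher numbered 5 to 9 and those called lower 2 or 3, and leaving out any 1 array gave 6 and 3. With the replicate number as a block the counts were 6 and 3, and 2193 and 1765 over all genes. Same-numbered callus and leaf arrays did not deviate together (r across genes -0.108, 0.072 and -0.043), so the numbers were not treated as pairs. The study's methods give a P value under 0.05 and more than 2-fold for these arrays but name no test. An equal-variance t-test at those thresholds called 2193 genes higher and 1765 lower unadjusted, and 2192 and 1764 after Benjamini-Hochberg.

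Of all genes, 3815 were higher and 1216 lower on the poly-A controls, and 1257 and 2794 after centring on TIP41. With all probe sets tested the counts were 4164 and 3392, with no fold threshold 4598 and 3572, and above 4-fold 839 and 956. The median of all genes moved to 0.59 on the poly-A controls, 0.27 on the hybridization controls and -0.58 on TIP41. The partner genes called higher fell from 4 to 2 after centring on TIP41, and were also 2 above 4-fold. Leaving out genes below the median gene kept 7 of the 20 members.

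After centring on TIP41 the log2 fold change was -0.19 for AT1G52060, -0.44 for AT1G52100, -0.58 for AT1G57570, -0.58 for AT1G60130, -0.47 for AT3G21380 and -0.58 for AT5G28520. On the hybridization and poly-A controls it was 0.20 and 0.52 for AT5G46000, 0.20 and 0.52 for AT5G49870, 0.23 and 0.55 for JAL23, and 0.21 and 0.53 for BGLU19. Centring adds 1 constant to every gene, which is what turned these signs. Quantile normalization again gave -0.0011 for AT5G28520. With 1 array left out, AT1G57570 ranged from -0.027 to 0.049, AT1G60130 from -0.025 to 0.043, AT5G28520 from -0.10 to 0.13, AT5G49870 from -0.10 to 0.0047, JAL23 from -0.063 to 0.015 and BGLU19 from -0.120 to 0.014.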

Other observations

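The probe sets shared by several genes, 2 of which list a family locus, were left out of every comparison and are credited to no gene. One read 3.48 to 3.71 in callus and 3.46 to 3.67 in leaf, and the other 5.95 to 6.14 and 5.84 to 6.49, so that both overlapped between the tissues.

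Beta-glucosidase genes of the PYK10 family stood close to family loci that were not called. BGLU24 lies next to AT5G28520 and had a log2 fold change of -0.01, and BGLU19 lies 2 genes from AT3G21380 and was at -0.05. In these places the neighbouring lectin changed by 0.0048 and 0.12. AT3G21380 lay below the first quartile on every array, and AT5G28520 and BGLU19 were close to it, so a change may have been too dim to be seen. The level of BGLU24 was not looked at here, so the same may hold for it. These genes were picked after their values were seen, and nothing was tested on them.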
